A study of Gallus gallus with 6 samples.

Results

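Respiratory complex I is the NADH dehydrogenase of the mitochondrial inner membrane, and its genes are described here in fiber cells of the lens, which make up most of its volume. Every row of the deposited RNA-seq table whose symbol starts with NDUF was taken, by symbol alone, which gave 40 of 9106 usable gene rows. Earlier results of these data were known when this group of genes was chosen. The 40 rows comprised 32 nuclear-encoded subunits (7 core and 25 accessory), 7 NDUFAF assembly factors and NDUFA4, which carries the prefix but is known in mammals as a subunit of cytochrome c oxidase. NDUFA3, NDUFA7, NDUFA11, NDUFB11, NDUFC1, NDUFAF3 and NDUFA4L2 are not analysed here.

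Complex I takes electrons from NADH, passes them along a chain of iron-sulfur clusters in its matrix arm to ubiquinone, and couples this to proton pumping by its membrane arm. The core subunits hold the redox groups and the pumps, and the core of the membrane arm is encoded in the mitochondrial genome. Accessory subunits surround the core, and assembly factors build the arms in separate modules without staying in the finished enzyme. In the lens, mitochondria are kept in the epithelium and the outer fibers and are degraded as fibers mature. The roles given below are those known mainly from mammals.

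Lenses came from White Leghorn chick embryos at embryonic day 13. Fiber cells were dissected from untreated lenses at 0 h (n = 3 pools) and from whole lenses held for 8 h in organ culture at 1% O2 (n = 3 pools), with 10 to 15 lenses in each pool, and the labels call the pools biological triplicates. The series set out to find which transcripts change over that time in hypoxia. Libraries held for 8 h in normal oxygen are not analysed here, so low oxygen and time in culture cannot be told apart. In dissected tissue, fewer cells of a type and less RNA per cell cannot be told apart either.

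Levels below are normalized counts, that is, read counts which the authors had divided by a factor per library and rounded. Differences are log2 fold changes of hypoxia over untreated on the log2(value + 1) scale, with their standard errors. A gene was called higher or lower at an adjusted p under 0.05 in a limma fit over all 9105 rows tested, and all 40 NDUF rows passed the filter on low values. Reads on the table's rows were 23.5 M to 29.1 M per untreated library and 29.4 M to 32.6 M per hypoxia library, so depth differed by group. Of these, 40131 to 47198 untreated and 43984 to 49026 in hypoxia lay on the NDUF rows, ranges that overlap before scaling. The fewest reads behind any NDUF value were 88 (NDUFAF6, untreated pool 3). Of 8 fiber cell markers, 7 had a row and stood above 0 in every library, and 6 of those 7 were called lower after 8 h, with summed levels of 995359 to 1218842 untreated and 679710 to 790825 in hypoxia. Over all genes, 25.7% were called lower. The 6 markers had mean levels over 10000, and 60.5% of the 147 genes at such levels were called lower. Markers of other cells were few: 2 of 4 for lens epithelium, 2 of 10 erythroid, 1 of 4 endothelial, 1 of 6 for retina and pigment epithelium, 2 of 4 mesenchymal and 0 of 2 for leukocytes had a row, and none of those with a row was at 0 in any library. Their summed levels were 2546 to 2879 untreated and 4067 to 4787 in hypoxia for epithelium, 275 to 368 and 198 to 409 for erythroid cells, 156 to 179 and 22 to 65 for endothelium, 11 to 45 and 39 to 229 for retina and pigment epithelium, and 689 to 959 and 358 to 419 for mesenchyme. The epithelial sum was nearly all PAX6, which was called higher (2838, 2517 and 2524, then 4734, 4038 and 4035). CDH1, the other epithelial marker with a row, did not pass (41, 29 and 40, then 53, 30 and 32). The genes listed as mesenchymal markers, which need not be particular to mesenchyme, moved apart. PDGFRA, which made up most of their sum, was called lower, and COL3A1 rose from 72, 67 and 55 to 165, 118 and 148. The part of these shifts in the results below was not tested.

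Complex I transcripts were lower after 8 h at 1% O2. Of the 40 NDUF rows, 29 were called lower, 0 higher and 11 did not pass, while 25.7% of all genes were called lower and 29.4% higher. The count of 0 higher held at an unadjusted p under 0.05 (0) and with voom (0), where 2896 and 2672 of all genes were higher. With library totals it was 2, and without hypoxia pool 2 it was 1. The median log2 fold change of the 40 rows was -0.40, beside -0.01 over all genes, and 37 of the 40 were negative. NDUFAB1, the row with the most negative fold change, fell by 36.7%. In 28 of the 40 rows all 3 hypoxia values lay under all 3 untreated values, against 30.1% of all genes. In 0 of the 40 rows did all 3 hypoxia values lie over all 3 untreated values, against 32.6% of all genes. At an adjusted p under 0.05, the authors' deposited table has 27 of the 40 rows lower, against 22.4% of all genes. The 2 rows called here but not in the authors' deposited table were NDUFAF5 and NDUFA13.

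Subunits and assembly factors did not have the same counts. Over all genes, 25.7% were called lower and 29.4% higher. Of the 32 subunits, 25 were lower, 0 higher and 7 did not pass, with a median of -0.42 and a range of -0.66 to -0.04. Of the 7 assembly factors, 3 were lower, 0 higher and 4 did not pass, with a median of -0.19 and a range of -0.42 to 0.27. This median depended on single pools: it was -0.315 without untreated pool 2, -0.30 without hypoxia pool 1 and -0.06 without untreated pool 3. With the authors' scaling all 32 subunits had a negative fold change. A positive one was found for 3 of the 7 assembly factors, beside 4474 of all 9105 genes. The difference between the classes was not itself tested.

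**Figure D1:**
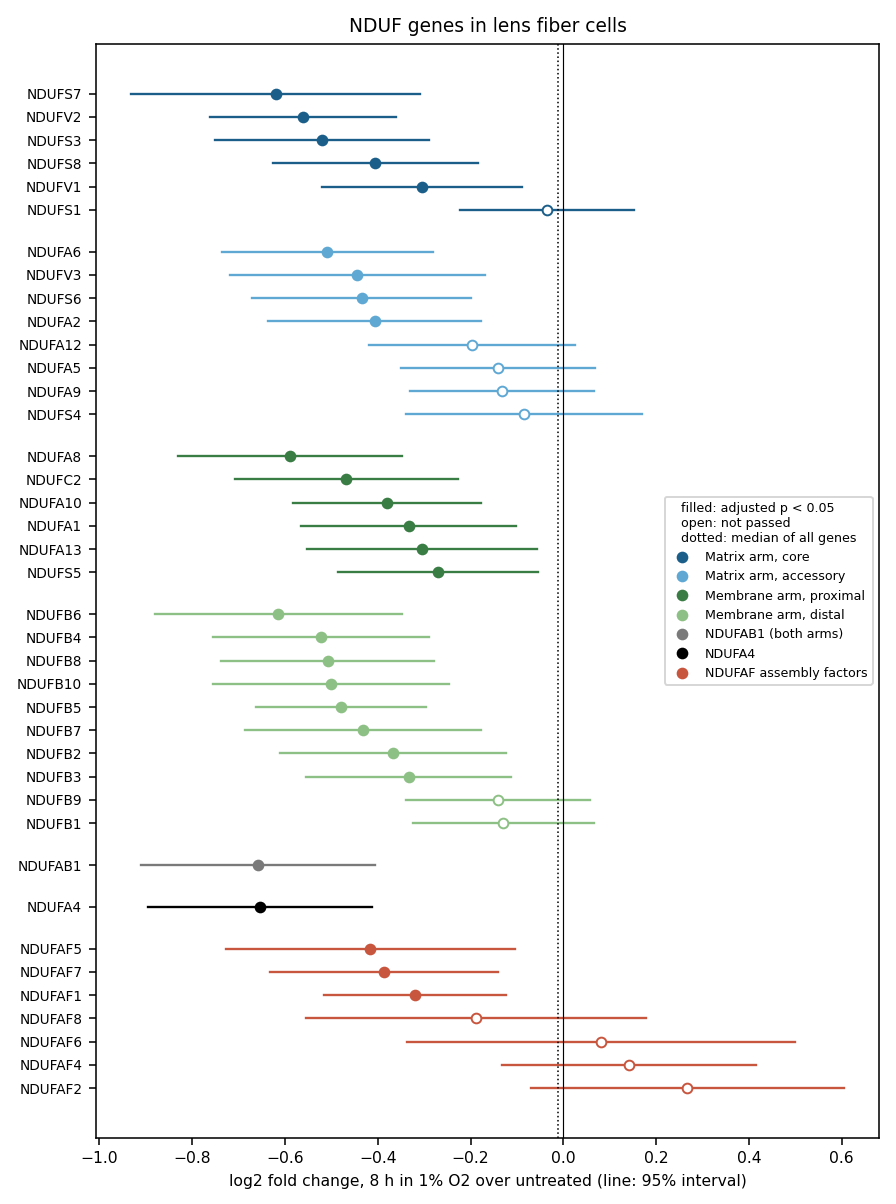
Log2 fold change of each NDUF gene, hypoxia over untreated, on the horizontal axis, with its 95% interval, grouped by place in the complex. Filled points passed an adjusted p under 0.05 (28 of the 39 genes drawn), open points did not, and the dotted line is the median of all genes at -0.01. Points for the subunits all lie left of 0, while NDUFAF2, NDUFAF4 and NDUFAF6 lie right of it with intervals that span 0.

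The scaling of the libraries bears on how many of these calls stand. The crystallin gene ASL1 took 48.2% to 53.1% of each library, and when libraries were scaled by their totals, the median of all genes moved by 0.216 on the log2 scale. With that scaling 12 NDUF rows were lower and 2 higher, while 10.7% of all genes were lower and 40.1% higher. The 2 higher rows were NDUFAF2 and NDUFAF4. The fold changes of NDUFS1, NDUFS4, NDUFB1, NDUFA9, NDUFB9, NDUFA5, NDUFA12 and NDUFAF8 turned positive with that scaling and did not pass. A change of scaling moves all genes of a library alike, so a gene's place relative to the median of all genes is nearly fixed whichever scaling is used. That place was -0.38 on the log2 scale for the median NDUF row, -0.40 for the subunits and -0.18 for the assembly factors. The 12 rows lower in each of the 17 alternative analyses were NDUFAB1, NDUFA4, NDUFS7, NDUFB6, NDUFA8, NDUFV2, NDUFB4, NDUFS3, NDUFA6, NDUFB8, NDUFB10 and NDUFB5.

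The summed level of the 40 rows was 48667, 50372 and 53916 in untreated pools 1 to 3 and 42249, 36543 and 40198 in hypoxia pools 1 to 3. The sums of the groups did not overlap. As a share of all normalized counts, they were 0.167%, 0.162% and 0.171% in untreated pools and 0.160%, 0.142% and 0.149% in hypoxia pools, so that hypoxia pool 1 came close to untreated pool 2. The hypoxia pools were not alike. Pool 2 held the lowest hypoxia value in 33 of the 40 rows and pool 1 the highest in 30. The median log2 difference from the untreated mean was -0.27, -0.51 and -0.34 in hypoxia pools 1 to 3, where all genes had medians of 0.01, -0.01 and -0.005. Among the untreated pools, pool 3 was highest in 25 rows and pool 1 lowest in 22. The cause of these differences between pools was not tested.

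**Figure D2:**
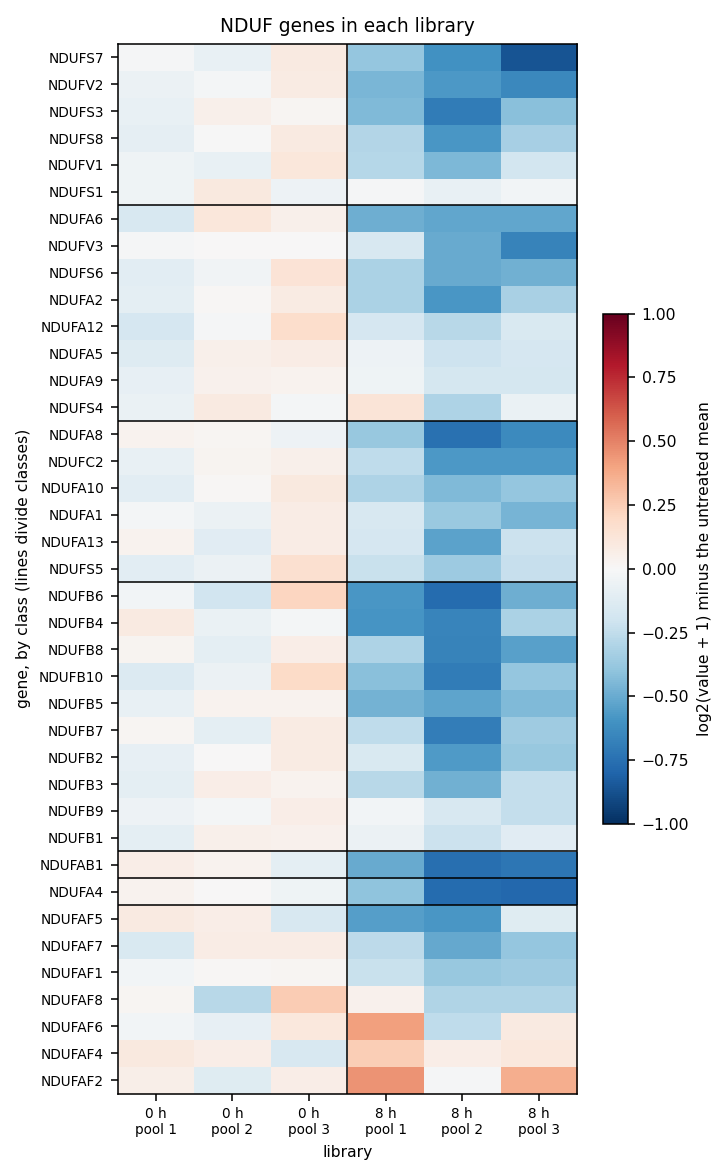
Each row is one of 39 NDUF genes and each column a library, and the colour gives log2(value + 1) minus the gene's mean over the untreated pools, from -1 (blue) to 1 (red). Lines divide the classes. Most cells of the hypoxia columns are blue, with pool 2 the lowest by median (-0.51), and the deepest reds of those columns lie among NDUFAF2, NDUFAF4 and NDUFAF6 at the bottom.

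The NADH-oxidising end of the matrix arm holds 3 of the 7 nuclear core subunits. NDUFV1 and NDUFV2 were called lower, and NDUFS1 did not pass. NDUFV1 binds NADH and the flavin that first accepts its electrons. It stood at 2152, 2098 and 2398 in untreated pools 1 to 3 and at 1818, 1620 and 1953 in hypoxia pools 1 to 3, a fall of 0.30 ± 0.10 on the log2 scale (adjusted p = 0.0215). The groups did not overlap, but the call ended without untreated pool 3 (adjusted p = 0.101) and without hypoxia pool 2 (adjusted p = 0.0708). NDUFV2, an iron-sulfur subunit beside it, went from 1141, 1172 and 1264 to 866, 798 and 762 (-0.56 ± 0.09, adjusted p = 0.000394), and its groups did not overlap. NDUFS1, the largest subunit and the carrier of several iron-sulfur clusters, was at 1124, 1239 and 1123 and then at 1152, 1105 and 1141. Its groups overlapped, and the log2 fold change of -0.04 ± 0.09 had a 95% interval of -0.22 to 0.15 (adjusted p = 0.744). It was the nuclear core subunit that did not pass.

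Within each library the ratio of NDUFS1 to NDUFV2, 2 subunits of one module, was 0.985, 1.06 and 0.888 in untreated pools and 1.33, 1.38 and 1.497 in hypoxia pools. The ratios did not overlap between the groups, and the scaling of a library cancels in them. The exact two-sided permutation p was 0.10, the smallest that 3 against 3 allows, and the pair was chosen with its values known. The ratio of NDUFS1 to NDUFV1 overlapped between the groups, with 0.522, 0.591 and 0.468 untreated and 0.634, 0.682 and 0.584 in hypoxia (exact two-sided permutation p = 0.20).

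Among the other nuclear core subunits, NDUFS7, NDUFS3 and NDUFS8 were lower. NDUFS7, which holds the last iron-sulfur cluster of the chain, was at 279, 267 and 300 untreated and at 215, 185 and 154 in hypoxia (-0.62 ± 0.14, adjusted p = 0.00346). It was the core subunit with the most negative fold change. NDUFS3 went from 649, 705 and 693 to 502, 420 and 509 (-0.52 ± 0.11, adjusted p = 0.00164), and this subunit is among the first to enter assembly. NDUFS8, an iron-sulfur subunit, went from 2337, 2479 and 2652 to 2027, 1657 and 1970 (-0.40 ± 0.10, adjusted p = 0.0056). In each of these 3 genes every hypoxia pool lay under every untreated pool.

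**Figure D3:**
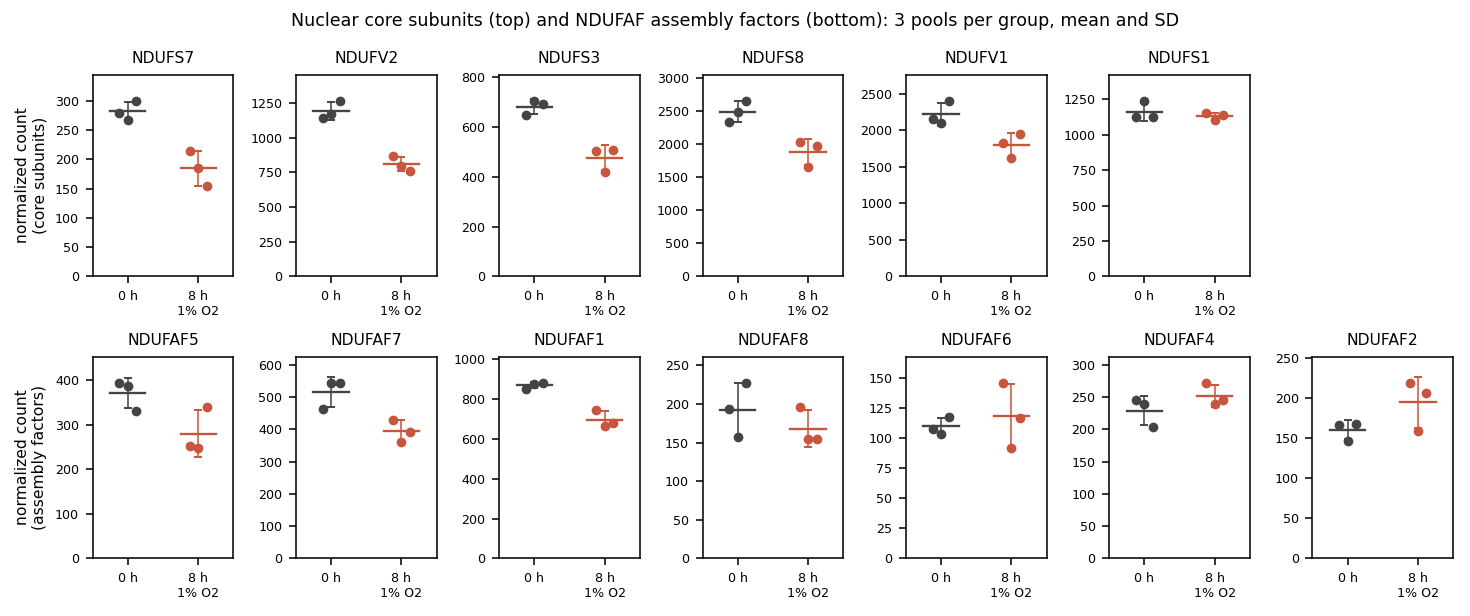
Normalized counts per pool of 6 nuclear core subunits (top) and the 7 NDUFAF assembly factors (bottom), with group means and SD (n = 3 each) and vertical axes that start at 0. The groups are apart in 5 of the 6 core subunits drawn, all but NDUFS1, and in 2 of the 7 assembly factors, NDUFAF1 and NDUFAF7. Over all genes, 30.1% had all 3 hypoxia values under all 3 untreated values, and the count for the assembly factors is near that share.

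The matrix arm has 8 accessory subunits with a row, and 4 were lower, 0 were higher and the other 4 did not pass (median -0.30). Over all genes, 25.7% were lower and 29.4% higher. NDUFA6, a subunit of the LYR protein family, fell furthest, from 524, 633 and 607 to 417, 409 and 409 (-0.51 ± 0.10, adjusted p = 0.00172). The 3 hypoxia pools of NDUFA6 were nearly equal. NDUFV3, a small subunit of the NADH-binding module, fell by 0.44 ± 0.13, and NDUFS6, a zinc-binding subunit, by 0.43 ± 0.11. NDUFA2, which has a thioredoxin-like fold, fell by 0.41 ± 0.10, and adjusted p-values of these 3 ran from 0.00534 to 0.011.

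The 4 matrix arm accessory subunits that did not pass were NDUFA12, NDUFA5, NDUFA9 and NDUFS4. NDUFS4, which stabilises the NADH-binding module and whose loss causes Leigh syndrome in people, was at 744, 831 and 768 untreated and at 851, 629 and 744 in hypoxia (-0.08 ± 0.12, 95% interval -0.34 to 0.17). Hypoxia pool 1 held the highest of its 6 values and hypoxia pool 2 the lowest. NDUFA9, a protein of the dehydrogenase fold near the ubiquinone site, was at 804, 879 and 872 and then 824, 753 and 754 (-0.13 ± 0.09, 95% interval -0.33 to 0.07). NDUFA5, a subunit of the ubiquinone module, was at 770, 873 and 885 and then 810, 730 and 750 (-0.14 ± 0.10, 95% interval -0.35 to 0.07). For both, hypoxia pool 1 lay within the untreated range. NDUFA12, which caps the NADH-binding module, was at 1851, 2064 and 2344 and then 1853, 1715 and 1870 (-0.20 ± 0.10, adjusted p = 0.118), and it was called lower without untreated pool 1 (-0.28, adjusted p = 0.0491). With library totals the fold changes of these 4 genes were positive and did not pass. The ratio of NDUFS4 to NDUFS6, 2 subunits of the NADH-binding module, was 1.46, 1.55 and 1.28 untreated and 1.94, 1.63 and 1.90 in hypoxia, without overlap (exact two-sided permutation p = 0.10). This p is the smallest that 3 against 3 allows, and the pair was chosen with its values known.

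Most membrane arm subunits were lower, where 25.7% of all genes were lower and 29.4% higher. Of 16 accessory subunits there, 14 were lower, 0 higher and 2 did not pass, with a median of -0.41, beside 10 lower of 15 for all matrix arm subunits with the same median of -0.41. The difference between the arms was not tested. In the part of the arm next to the matrix arm, 6 of 6 were lower. NDUFA8, a cysteine-rich subunit on the intermembrane face, led them, from 753, 744 and 711 to 565, 438 and 472 (-0.59 ± 0.11, adjusted p = 0.000957). The others were NDUFC2 (-0.47 ± 0.11), NDUFA10, a relative of nucleoside kinases (-0.38 ± 0.09), NDUFA1 (-0.33 ± 0.11), NDUFA13, also known as GRIM-19 (-0.31 ± 0.11), and NDUFS5 (-0.27 ± 0.10). Adjusted p-values of these 5 ran from 0.00388 for NDUFC2 to 0.0383 for NDUFA13. NDUFS5 and NDUFA13 were the least stable calls among the subunits, each called in 11 of 17 alternatives. NDUFS5 did not pass without untreated pool 2 (adjusted p = 0.0612), untreated pool 3 (0.172) or hypoxia pool 2 (0.0935). NDUFA13 did not pass without untreated pool 1 (adjusted p = 0.102), untreated pool 3 (0.128) or hypoxia pool 2 (0.129). NDUFA1 did not pass without untreated pool 3 (adjusted p = 0.0797) or hypoxia pool 3 (0.0723).

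Of the 10 subunits of the distal membrane arm, named NDUFB, 8 were lower and 2 did not pass (median -0.46). Over all genes, 25.7% were lower. NDUFB6 went from 761, 678 and 897 to 515, 454 and 551 (-0.61 ± 0.12, adjusted p = 0.00139). NDUFB4 went from 1198, 1076 and 1111 to 750, 711 and 904 (-0.52 ± 0.11, adjusted p = 0.00168). NDUFB8 went from 1861, 1702 and 1912 to 1468, 1149 and 1249 (-0.51 ± 0.10, adjusted p = 0.00184). These 3 are membrane subunits of the outer end of the arm, and their groups were apart. NDUFB10 (-0.50 ± 0.12) and NDUFB7 (-0.43 ± 0.12), which are cysteine-rich subunits of the intermembrane face, fell as well, as did NDUFB5 (-0.48 ± 0.08), NDUFB2 (-0.37 ± 0.11) and NDUFB3 (-0.33 ± 0.10), with adjusted p from 0.000632 for NDUFB5 to 0.0157 for NDUFB2. The call of NDUFB2 ended without untreated pool 3 (adjusted p = 0.0662) or hypoxia pool 2 (0.0518), and that of NDUFB3 without untreated pool 2 (0.0623) or untreated pool 3 (0.0573). The members that did not pass were NDUFB9 and NDUFB1. NDUFB9, a LYR family subunit, was at 1315, 1343 and 1427 and then 1338, 1217 and 1155 (-0.14 ± 0.09, 95% interval -0.34 to 0.06). NDUFB1 was at 1748, 1940 and 1929 and then 1797, 1609 and 1728 (-0.13 ± 0.09, 95% interval -0.32 to 0.07). In both, hypoxia pool 1 overlapped the untreated pools.

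The members with the most negative fold changes were NDUFAB1, which has roles beyond complex I, and NDUFA4, known in mammals as a cytochrome c oxidase subunit. NDUFAB1, the mitochondrial acyl carrier protein, serves fatty acid synthesis in mitochondria, binds LYR subunits in both arms of complex I and takes part in iron-sulfur cluster assembly. It stood at 412, 403 and 369 untreated and at 277, 234 and 239 in hypoxia (-0.66 ± 0.12, adjusted p = 0.000624). NDUFA4 stood at 2292, 2247 and 2176 untreated and at 1695, 1310 and 1296 in hypoxia (-0.65 ± 0.11, adjusted p = 0.000484). In both genes every hypoxia pool lay under every untreated pool, and hypoxia pool 1 was the highest of the hypoxia pools. Of the LYR partners of NDUFAB1 in complex I, NDUFA6 was called lower and NDUFB9 did not pass, and their difference was not tested.

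Among the assembly factors, 3 were lower. NDUFAF1, which helps build the membrane arm as part of an assembly complex with ECSIT and ACAD9, was at 852, 876 and 880 untreated and at 744, 667 and 679 in hypoxia (-0.32 ± 0.09, adjusted p = 0.0103). NDUFAF7, a protein methyltransferase of the matrix, was at 463, 542 and 543 and then 429, 361 and 393 (-0.39 ± 0.11, adjusted p = 0.0125). Its groups were apart, but the call ended without untreated pool 2 (adjusted p = 0.0534) and without untreated pool 3 (adjusted p = 0.0558). NDUFAF5, a hydroxylase that modifies NDUFS7, was at 394, 388 and 332 and then 253, 247 and 341 (-0.42 ± 0.14, adjusted p = 0.027). Hypoxia pool 3 overlapped the untreated pools. This call ended without untreated pool 1 (adjusted p = 0.0893), untreated pool 2 (0.0854), hypoxia pool 1 (0.0789) or hypoxia pool 2 (0.0831), and it did not pass in the authors' deposited table (adjusted p = 0.0523).

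The other 4 assembly factors did not pass. NDUFAF2, a paralogue of NDUFA12 that holds its place until late in assembly, was at 167, 147 and 168 untreated and at 219, 159 and 207 in hypoxia (0.27 ± 0.15, 95% interval -0.07 to 0.60, adjusted p = 0.16). Hypoxia pool 2 lay within the untreated range, and without it the gene was called higher (0.41, adjusted p = 0.0387), as it was with library totals (0.48, adjusted p = 0.0248). NDUFAF4, which acts with NDUFAF3 on the ubiquinone module, was at 245, 239 and 204 and then 272, 240 and 246 (0.14 ± 0.13, 95% interval -0.13 to 0.42), and was called higher with library totals (0.36, adjusted p = 0.0484). NDUFAF6, needed early in assembly, was at 108, 104 and 118 and then 146, 92 and 117 (0.08 ± 0.19, 95% interval -0.34 to 0.50). NDUFAF8, a partner of NDUFAF5, was at 193, 157 and 227 and then 196, 154 and 154 (-0.19 ± 0.17, 95% interval -0.55 to 0.18). Of these 4 intervals, only that of NDUFAF8 holds the median of the subunits. The intervals of the subunits NDUFS1, NDUFS4, NDUFA5, NDUFA9, NDUFB9 and NDUFB1 do not hold it either. The 4 assembly factors rested on 88 to 152 reads in their lowest library. They had standard errors of 0.13 to 0.19, beside 0.08 to 0.14 for the subunits.

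Genes of like level can be set side by side within each library. NDUFS7 had a mean level of 233 over the 6 libraries and NDUFAF4 one of 241, with standard errors of 0.14 and 0.13. In this pair NDUFS7 fell where NDUFAF4 did not pass. Other pairs of like level gave other calls. The assembly factor NDUFAF1, at a mean of 783, was lower where the subunit NDUFA5, at 803, did not pass. NDUFAF5, at 326, and the subunit NDUFAB1, at 322, were both lower. The ratio of NDUFAF4 to NDUFS7 was 0.878, 0.895 and 0.68 untreated and 1.27, 1.30 and 1.597 in hypoxia, without overlap. The ratio of NDUFAF2 to its paralogue NDUFA12 was 0.0902, 0.0712 and 0.0717 untreated and 0.118, 0.0927 and 0.111 in hypoxia, also without overlap. Both ratios had an exact two-sided permutation p of 0.10, the smallest that 3 against 3 allows, among 8 ratios computed with the values known. The ratio of NDUFAF5 to NDUFS7, the subunit that it modifies, was 1.41, 1.45 and 1.11 untreated and 1.18, 1.33 and 2.21 in hypoxia, and it overlapped between the groups (exact two-sided permutation p = 0.70).

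The share of all genes called lower varied with their level. Of 3191 genes with a mean level from 300 to 1000, 22.5% were called lower, and 16 of the 19 NDUF rows in that range were. Of 1516 genes from 1000 to 3000, 31.5% were lower, beside 9 of 13 NDUF rows, and of 476 genes from 3000 to 10000, 39.5% were lower, beside 3 of 3 NDUF rows. Of 2362 genes from 100 to 300, 22.4% were lower, beside 1 of 5 NDUF rows, which was NDUFS7 with NDUFAF2, NDUFAF4, NDUFAF6 and NDUFAF8 as the others. The bounds of these ranges were chosen with the data known.

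**Figure D4:**
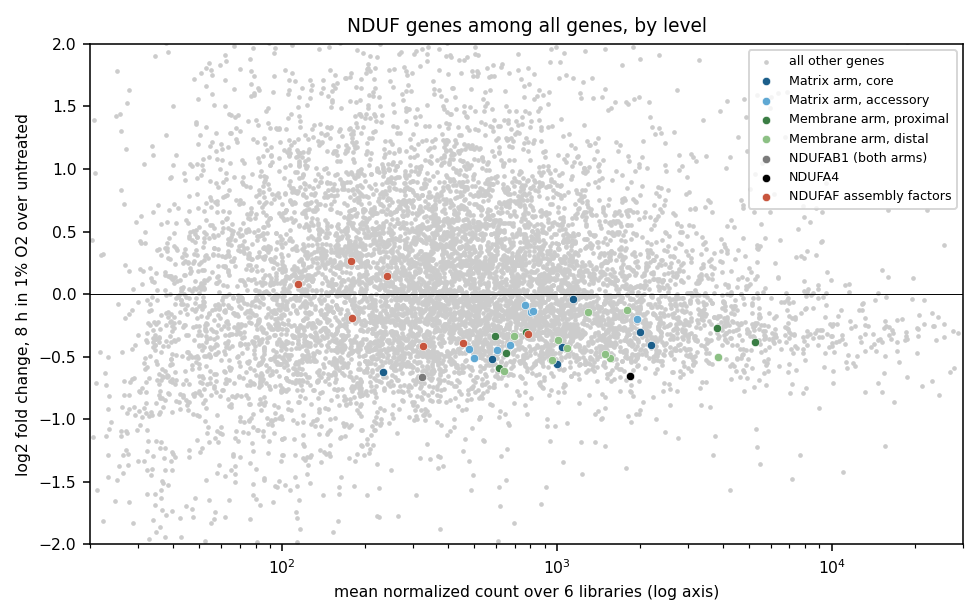
Log2 fold change, hypoxia over untreated, against the mean normalized count over the 6 libraries (log axis), with NDUF genes coloured by class and other genes in grey. Other genes beyond the axis limits are not shown. The subunits lie below 0 across their levels, and the 4 assembly factors that did not pass lie at the low end, at means from 114 to 241.

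Complex I genes of the mitochondrial genome encode the core of the membrane arm, and they were lower too. Of 7 with a row, 6 were lower, 0 higher and 1 did not pass, with a median of -0.78, where 25.7% of all genes were lower. All 7 fold changes were negative, so no threshold on p could give a higher call. MT-ND2 went from 7190, 7825 and 7401 to 3220, 3077 and 3325 (-1.22 ± 0.09), and ND4L from 2047, 2401 and 1808 to 898, 974 and 812 (-1.21 ± 0.12). These were lower by more than any NDUF row in fold change, and both calls held in 17 of 17 alternatives. ND1, the gene that did not pass, was at 13346, 14810 and 14417 and then 14836, 12271 and 9369, with hypoxia pools that span the untreated range, and it was called lower without hypoxia pool 1 (-0.40, adjusted p = 0.0188). The call of ND3 (-0.52 ± 0.15) ended without untreated pool 2 (adjusted p = 0.0529) or hypoxia pool 2 (0.0524). ND4 overlaps ND4L, so reads of this pair can have been shared. ND6 lies on the opposite strand, and whether counting used the strand is not given in the sources used here.

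Assembly factors without the NDUF prefix moved both ways. Of 11 with a row, 5 were lower, 2 higher and 4 did not pass, where 25.7% of all genes were lower and 29.4% higher. Their median of -0.08 changed sign with single pools, at 0.06 without hypoxia pool 2, 0.03 without untreated pool 3 and -0.24 without untreated pool 2, and it was 0.13 with library totals. TMEM70, which did not pass, is also counted among the assembly factors of complexes II to V below. LYRM2, a LYR protein, fell by 0.60 ± 0.13 on the log2 scale, and AIFM1, an oxidoreductase needed for import into the intermembrane space, by 0.56 ± 0.09. TIMMDC1, a membrane anchor of assembly intermediates, fell by 0.55 ± 0.13. ACAD9, partner of NDUFAF1, fell by 0.36 ± 0.09, while its partner ECSIT was at 383, 292 and 423 and then 357, 281 and 396 (-0.08 ± 0.16, adjusted p = 0.686). CHCHD4, which works with AIFM1 in import, rose from 126, 140 and 134 to 282, 208 and 231 (0.83 ± 0.15, adjusted p = 0.000652). TMEM186, a membrane protein that associates with the NDUFAF1 assembly complex, was at 263, 304 and 352 and then 425, 345 and 418 (0.37 ± 0.14, adjusted p = 0.0347). Its groups overlapped, and the call ended without untreated pool 1 (adjusted p = 0.138), untreated pool 2 (0.0792), hypoxia pool 1 (0.0955) or hypoxia pool 3 (0.0904).

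Genes that supply iron-sulfur clusters, which complex I needs in quantity, moved both ways. Of 13 with a row, 7 were higher, 4 lower and 2 did not pass (median 0.33). Over all genes 29.4% were higher and 25.7% lower, and the lower count here is near that share. ISCU, the scaffold on which clusters are built, rose from 409, 403 and 360 to 1019, 947 and 795 (1.23 ± 0.11, adjusted p = 5.42e-06). Other genes of that first step rose with it: LYRM4 by 0.48 ± 0.16, the cysteine desulfurase gene NFS1 by 0.43 ± 0.10 and FDXR by 0.33 ± 0.13. IBA57, a late-acting factor, rose by 0.80 ± 0.13 and the chaperone gene HSPA9 by 0.37 ± 0.09. The call of FDXR held, among the pools left out in turn, only without hypoxia pool 2, and that of LYRM4 ended without untreated pool 1 or hypoxia pool 1. The lower members included HSCB (-0.54 ± 0.10), a co-chaperone of transfer, NFU1 (-0.53 ± 0.09), which delivers clusters to complex I among others, and GLRX5 (-0.36 ± 0.13), a carrier whose call ended without untreated pool 1, untreated pool 2 or hypoxia pool 2. NDUFAB1, described above, interacts with the LYRM4 and NFS1 proteins, and its transcript was lower while theirs were higher.

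Of the regulators of respiratory chain gene expression, most were higher. Of 9 with a row, 6 were higher, 1 lower and 2 did not pass (median 0.48), where 29.4% of all genes were higher. Without untreated pool 3 the count was 4 higher, beside 2345 of all genes, and without hypoxia pool 1 the median was 0.32. NRF1, nuclear respiratory factor 1, which activates many subunit genes, rose from 78, 72 and 79 to 220, 123 and 154 (1.07 ± 0.21, adjusted p = 0.00136). GABPA and GABPB1, subunits of nuclear respiratory factor 2, rose by 0.26 ± 0.08 and 0.48 ± 0.15, and the coactivator gene PPRC1 by 0.70 ± 0.08. GABPB2, another subunit gene of nuclear respiratory factor 2, did not pass (0.001 ± 0.18). The call of GABPB1 ended without untreated pool 3 (adjusted p = 0.0626) or hypoxia pool 1 (0.32, adjusted p = 0.0659), and that of GABPA ended without untreated pool 3. POLRMT, the mitochondrial RNA polymerase, rose by 0.70 ± 0.12 and TFB2M, its initiation factor, by 0.49 ± 0.14, a call that ended without untreated pool 2. TFB1M, which methylates mitochondrial ribosomal RNA, fell by 0.80 ± 0.14, and TFAM, which packages mitochondrial DNA, was at 0.13 ± 0.14 and did not pass.

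Complexes II to V are the other parts of the chain, and their nuclear-encoded subunits were lower as well. Of 30 with a row, 25 were lower, 0 higher and 5 did not pass (median -0.41), beside 25 of 32 and a median of -0.42 for complex I. Over all genes 25.7% were lower and 29.4% higher. With the authors' scaling all 30 fold changes were negative, so no threshold on p could give a higher call. The most negative were ATPIF1 (-0.60 ± 0.11) and ATP5J2, a subunit of ATP synthase (-0.56 ± 0.12). ATPIF1 is the inhibitor of that enzyme and is counted among the 30. The 5 that did not pass, named after their values were seen, were SDHA, SDHB, SDHC, COX7C and ATP5I, so that 3 of the 4 complex II subunits measured were among them. SDHA was at 905, 927 and 955 and then 889, 837 and 1066 (-0.005 ± 0.10). Of 30 assembly factors of complexes II to V, 9 were lower, 3 higher and 18 did not pass (median -0.29), and the lower share is near the 25.7% of all genes. SDHAF4 of complex II (-1.16 ± 0.14) and CMC2 (-0.69 ± 0.25) were the most negative, and COX11 (0.96 ± 0.10), COA7 (0.63 ± 0.14) and COX10 (0.37 ± 0.14), all of complex IV, were higher. The call of CMC2 ended without untreated pool 2, untreated pool 3, hypoxia pool 1 or hypoxia pool 3, and that of COX10 ended without any 1 pool but hypoxia pool 1. Subunit genes and assembly factor genes were not tested against each other here either.

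**Figure D5:**
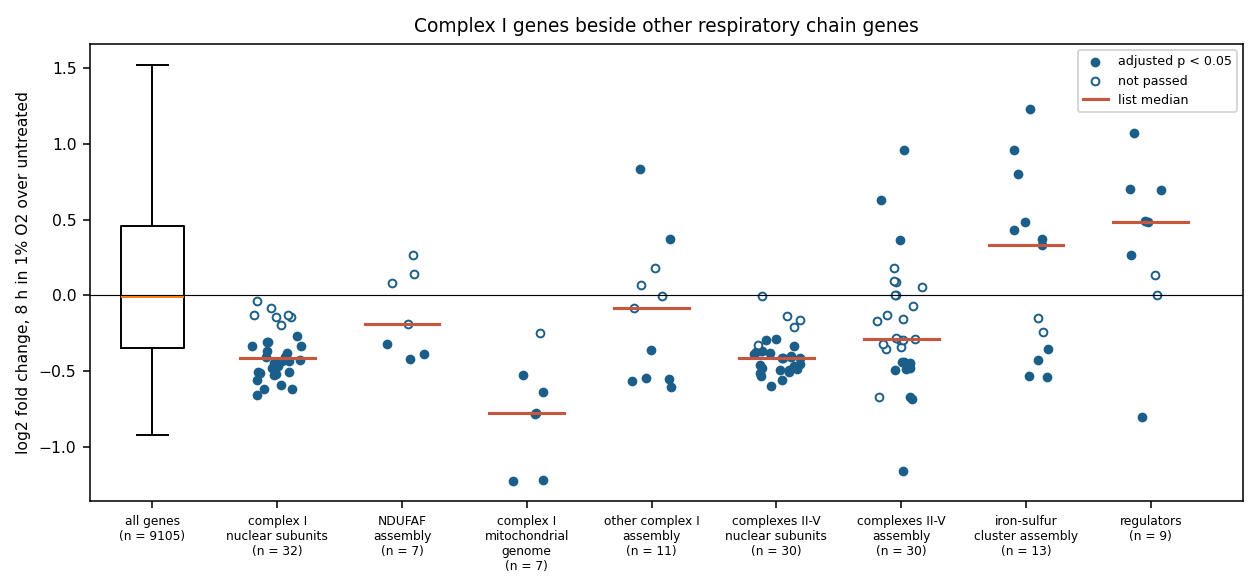
Log2 fold change, hypoxia over untreated, of each gene in 8 lists, with list medians as red bars and filled points for an adjusted p under 0.05. The box gives all 9105 genes (quartiles, with whiskers from the 5th to the 95th percentile). Subunits of complex I and of complexes II to V lie in a narrow band around medians of -0.42 and -0.41, while assembly, iron-sulfur and regulator genes spread to both sides of 0.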

How the data were processed

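The deposited table has 9107 gene rows with a whole-number score in each library. Judged from the values, the authors divided read counts by a size factor for that library and rounded the quotient, since low values fall at regular steps and the libraries' median ratios to a geometric mean reference were 0.992 to 1.016. The deposited table also gives the authors' shrunken log2 fold change and adjusted p-value, per the file headers. The build galGal6 and the tools cutadapt, STAR, HISAT2, Bowtie2, StringTie, edgeR and DESeq2 are named, with no roles, per the submitters' processing notes. The sources used here do not state the counting program, the annotation or the use of strand. The table's 1 row with a value that was not whole was left out. The number of columns of unknown samples was 0.

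On rows with a mean of at least 1, limma 3.58.1 (R 4.3.3) was fitted to log2(value + 1). The model held group alone, and variances were moderated robustly with a trend on the mean. P-values were adjusted by Benjamini-Hochberg over 9105 rows. The test was tried on simulated data in which far fewer genes changed than were called here. That trial does not show how the test behaves on these data. A count model, foreseen for raw counts, was not used because the table does not hold them. Size factors, and from them reads, were recovered from the steps in values from 5 to 400. They were 0.744 to 0.937 in untreated libraries and 1.09 to 1.27 in hypoxia libraries. P-values measure the spread between pools.

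The members and gene lists were chosen with earlier results of these data known, and classes of subunits follow the mammalian enzyme. All NDUF rows are in the counts. The values of some genes in these lists are not reported here. Values in every library are given for the other core subunits, the assembly factors, NDUFA4, NDUFAB1 and the 5 other subunits of lowest and of highest fold change. Of other lists, the higher members, the 2 lowest and up to 3 more are named. All 40 NDUF symbols are in the RefSeq gene table of assembly GRCg7b. Its build differs from galGal6, so coordinates are left out.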

Additional observations from a re-analysis of the deposited data

How the results depend on the processing

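With library totals 976 genes (10.7%) were lower and 3647 (40.1%) higher. That scaling gave 12 NDUF rows lower and 2 higher, 11 complex I subunits lower, and 0 NDUFAF assembly factors lower and 2 higher. Of 11 other complex I assembly factors, 2 were lower and 3 higher. Of 13 iron-sulfur genes, 2 were lower, as were 11 of 30 subunits of complexes II to V. Of the 30 assembly factors of those complexes, 3 were lower and 5 higher. These higher counts among assembly factors were shares below the 40.1% of all genes. That scaling moves the median of all genes up by 0.216, and with all 17 alternatives NDUF rows lower ran from 12 to 29. Leaving out each pool in turn gave 22 to 28 NDUF rows lower and 0 to 1 higher, 19 to 25 subunits lower, 1 to 3 NDUFAF factors lower and 0 to 1 higher, 1 to 2 other complex I assembly factors higher, 5 to 7 iron-sulfur genes higher and 4 to 6 regulators higher. Over all genes this gave 1716 to 2249 lower and 2345 to 2565 higher, beside 2336 and 2681 with every pool. Without trend and robust moderation 1 other complex I assembly factor was higher. Of the 29 NDUF calls, 21 held whichever pool was left out. The pseudocount, the filter on low values, the trimmed mean of M-values, recomputed median-ratio factors and voom changed no NDUF call. Scaling by library totals with the crystallin genes left out gave 23 NDUF rows lower. Without trend and robust moderation there were 25. Same-numbered pools had correlations of their deviations of 0.146, 0.129 and 0.0397, each the highest for its untreated pool. Pools of unlike number had -0.194 to 0.0739. These values are low and do not settle whether the numbers pair the pools. A replicate block gave 29 NDUF rows lower and 0 higher. Over all genes it gave 2527 lower and 2786 higher, beside 2336 and 2681 without it. The less abundant classes rested on fewer reads. The median number of reads in a gene's lowest library was 152 for the NDUFAF factors and 147 for the regulators. It was 145 for assembly factors of complexes II to V, beside 746.5 for complex I subunits. The part of depth in the calls was not tested.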
